A study of Mus musculus with 7 samples.

Results

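The 33 genes described here encode enzymes that detoxify reactive oxygen species and the enzymes and regulators of the glutathione and thioredoxin systems. They were chosen by symbol from the 50686 genes listed for each library, and all 33 were present in every library. They comprise superoxide dismutases (2 genes), glutathione peroxidases (2), peroxiredoxins with the sulfiredoxin Srxn1 (7), the thioredoxin system (5), glutaredoxins (3), glutathione synthesis and recycling (4), glutathione transferases (6), the quinone reductase Nqo1 with the methionine sulfoxide reductase Msrb1 (2), and the regulators Nfe2l2 and Keap1 (2).

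The libraries came from microglia, the resident macrophages of the brain, of 4 young (3 to 4 months; mice 14C, 18C, 23C and 29C) and 3 old (21 to 22 months; mice 2posI, 3posI and 4posI) male C57BL/6 mice. All mice received no drug and had undergone transient occlusion of the middle cerebral artery, a model of stroke, 4 days earlier. Cells were sorted with CD11b and CD45 antibodies and were Bodipy+, that is, they held neutral lipid droplets stained by this dye. Each library was made from the cells of 1 mouse, and the age comparison asked whether differences described for females were present in males. Both ages were therefore ischemic, Bodipy+ and male. Infiltrating monocytes also carry CD11b and CD45, and the study defines microglia as CD11b+ CD45low cells, a gate meant to leave out monocytes with high CD45. Female, sham-operated and Bodipy-negative cells were not analysed here.

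Superoxide dismutases turn superoxide into hydrogen peroxide, which glutathione peroxidases and peroxiredoxins then reduce to water at the expense of glutathione and thioredoxin. Both carriers are recharged with electrons from NADPH, through glutathione reductase and the thioredoxin reductases, and glutathione transferases couple glutathione to lipid peroxidation products and other electrophiles. The transcription factor NRF2, encoded by Nfe2l2, is kept low by KEAP1 until oxidants modify KEAP1, and it then acts on many of these genes through antioxidant response elements. In microglia the same enzymes meet the superoxide that the phagocyte NADPH oxidase releases during the respiratory burst.

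Total expected counts ranged from 36574083 to 53002386 per library. Ribosomal RNA genes, mitochondrial ones included, took 4.14% to 4.99% of the counts in the young and 2.21% to 3.37% in the old libraries, without overlap, and the part of this difference in the results was not tested. The 7 microglia markers, P2ry12, Tmem119, Cx3cr1, Sall1, Csf1r, Aif1 and Itgam, were counted in all 7 libraries and summed to 7853 to 15494 CPM (read counts scaled to library size) in young and 5236 to 11081 CPM in old mice. Old mouse 3posI stood apart: it had the lowest microglia sum and 1916 CPM of 5 monocyte markers, against 14.8 to 99.6 CPM in the other 6 libraries. In 3posI the monocyte genes Ccr2, Chil3 and Ly6c2 reached 231, 1426 and 162 CPM. Ly6c2 and Plac8 were above every young mouse in the other old mice too, and ages overlapped in Ccr2, Chil3 and Vcan. In 2posI and 4posI Ly6c2 had 15.3 and 9.59 CPM, against 0.936 to 2.85 CPM in young mice. Plac8 had 6.91 and 11.7 CPM there, against 0.922 to 4.56 CPM in young mice. The libraries are bulk samples of sorted cells, so fewer cells of a type and less RNA per cell cannot be told apart.

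None of the 32 members tested passed an adjusted p of 0.05 between old and young mice (quasi-likelihood test of edgeR, with the adjustment of Benjamini and Hochberg over 17559 genes), while 141 genes, 0.803% of all tested, did. Prdx4 is on chromosome X, which was left out of the test. At an unadjusted p under 0.05 there were 8 members, against 18.9% of all genes: Gclc, Txn2, Prdx5, Glrx, Msrb1, Txn1 and Gstm1 were higher and Gsta4 was lower in old mice. The fitted difference was above 0 in 24 of 32 members, against 48.8% of all genes, and the median log2 fold change was 0.34, against -0.01 over all genes. Without 3posI, 20 of 32 members were higher, against 48.13% of all genes, and the median was 0.08. In that fit 4 members (12.5%) had an unadjusted p under 0.05, against 17.65% of all genes. Of the 12 alternative settings, DESeq2 alone called a member, Gclc, with an adjusted p of 0.0163. DESeq2 also called the most genes, 1399 of the 17559.

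**Figure D1:**
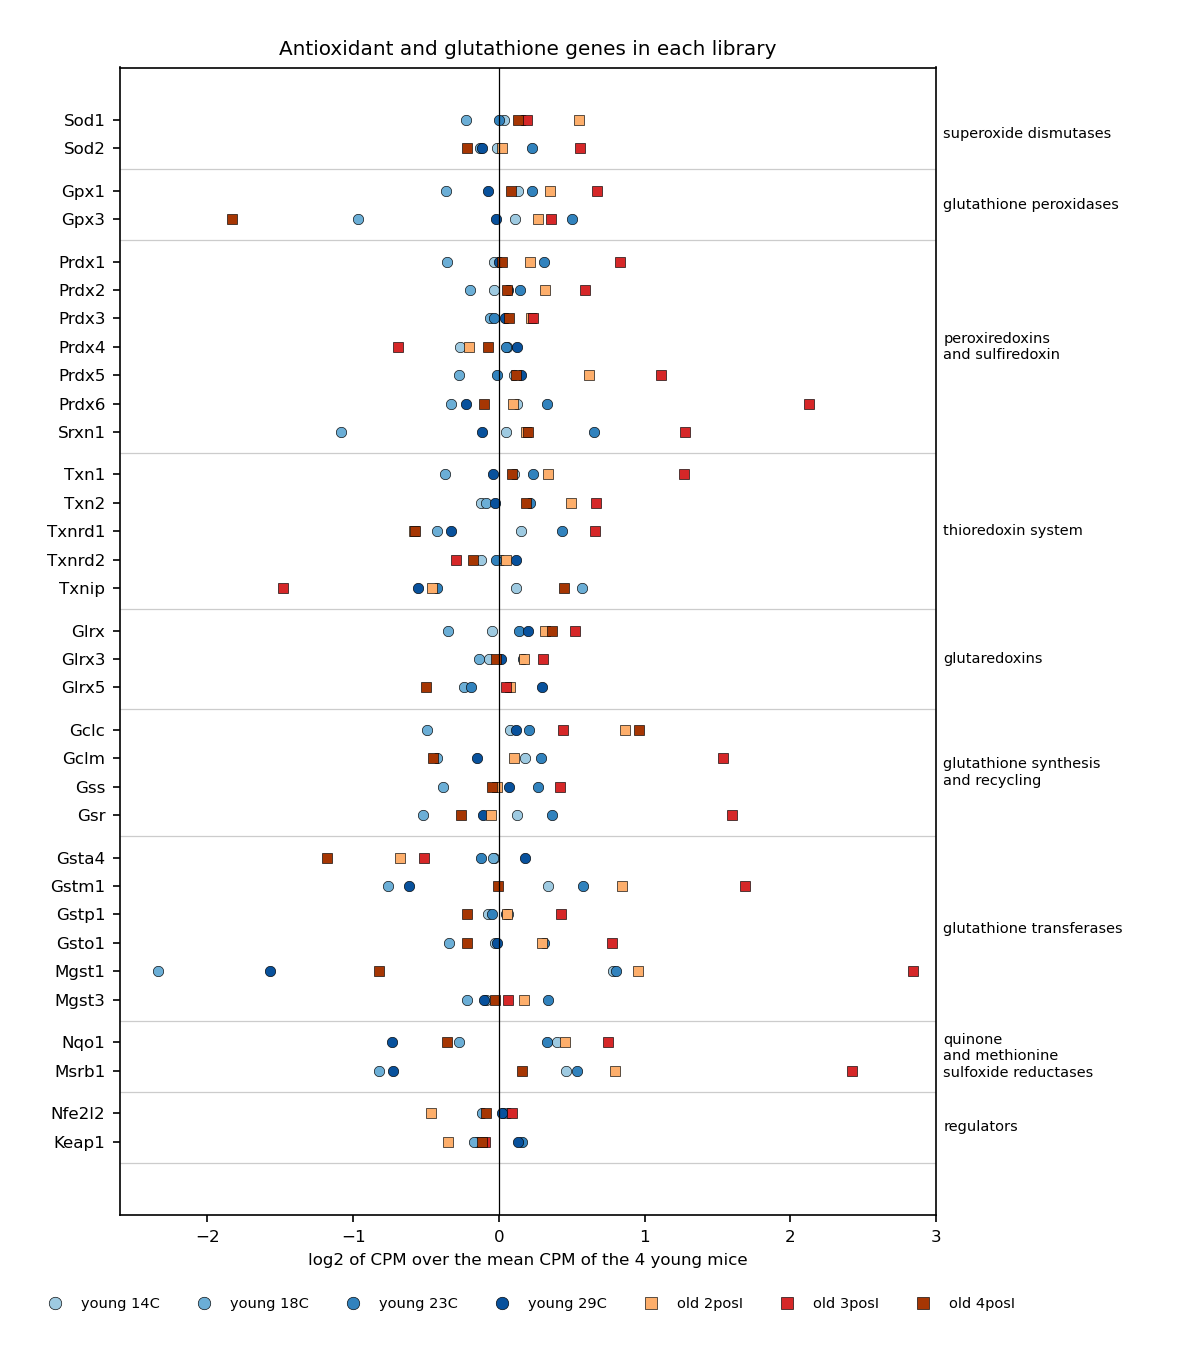
The horizontal axis gives the log2 of TMM-normalized CPM in each library over the mean CPM of the 4 young mice, for each of the 33 genes grouped by enzyme class; circles are young and squares are old mice. The 3posI square lies farthest right in 23 of the 32 tested genes, and old and young symbols are intermixed in most rows.

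Ages did not overlap in CPM for 4 of the 32 members (12.5%), against 17.8% of all genes. In Prdx3, Glrx and Gclc every old mouse was above every young one, as in 8.7% of all genes. In Gsta4 every old mouse was below every young one, as in 9.06% of all genes. These shares of members were close to, or below, those of all genes.

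**Figure D2:**
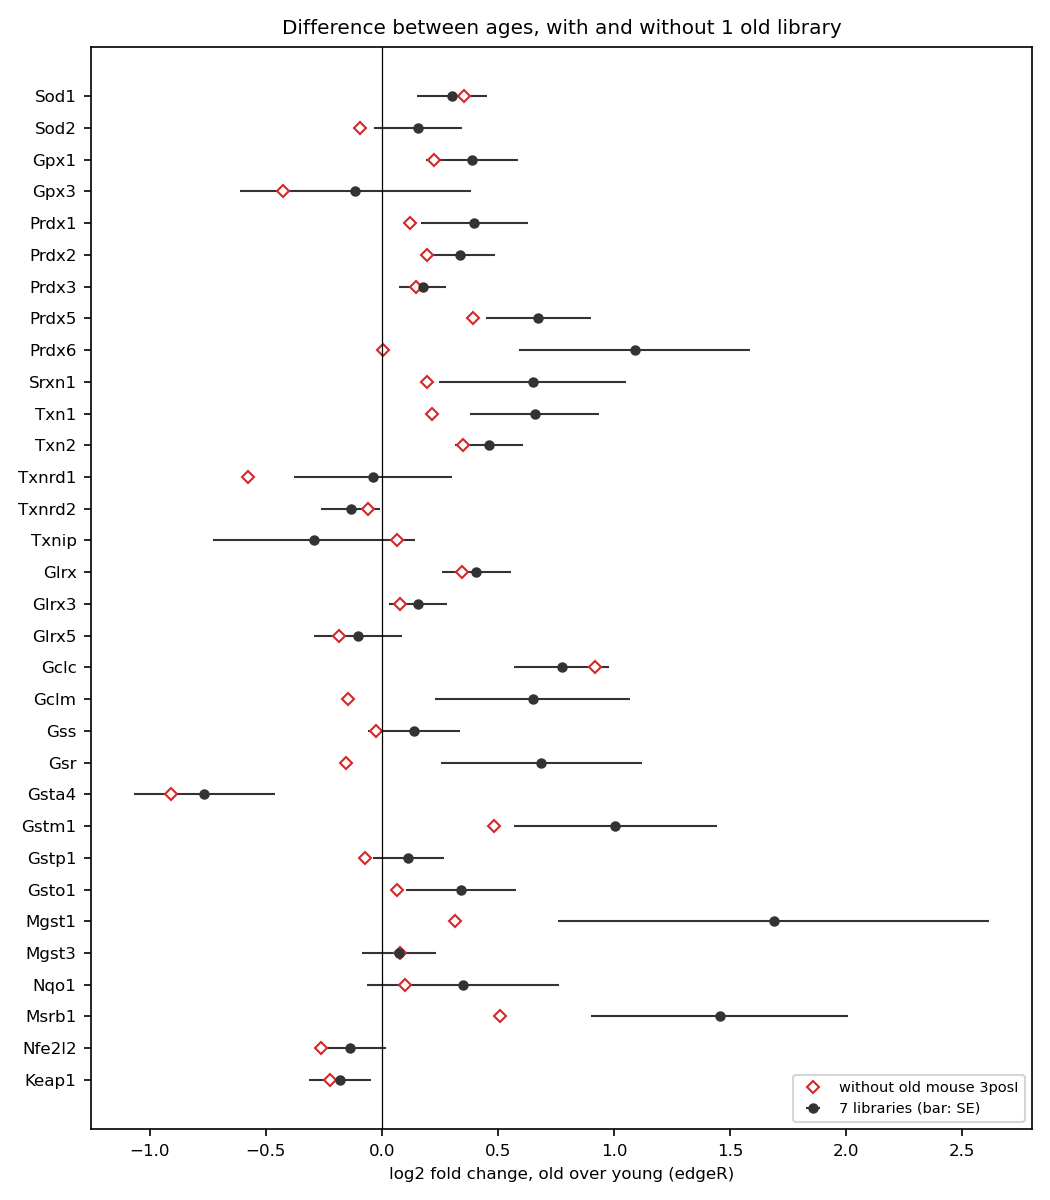
The horizontal axis gives the log2 fold change of old over young mice for the 32 tested genes, with the SE as a bar for all 7 libraries and an open diamond for the fit without old mouse 3posI. Prdx6, Mgst1, Msrb1, Gsr and Gclm move toward 0 or past it without that library, and Gclc, Glrx and Txn2 keep values of 0.92, 0.34 and 0.35.

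Levels of different genes were compared in TPM, in which counts are divided by transcript length and scaled to the library. The 33 genes summed to 4536 ± 554 TPM in young (SD, n = 4) and 5525 ± 1206 TPM in old mice (SD, n = 3). The old mice had 4845, 6918 and 4812 TPM, and the young ones 3928 to 5195 TPM, so 1 old mouse, 3posI, was above the young range. Gpx1, Prdx1, Sod1 and Prdx5 made up 55.6% to 62.7% of the summed TPM in every library. Peroxiredoxins with Srxn1 were the most abundant class, with 1596 ± 208 TPM in young and 2070 ± 645 TPM in old mice. At the other end, Nqo1 and Gsta4 were close to the limit of counting, with 34 to 80 and 38 to 98 expected counts per library.

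**Figure D3:**
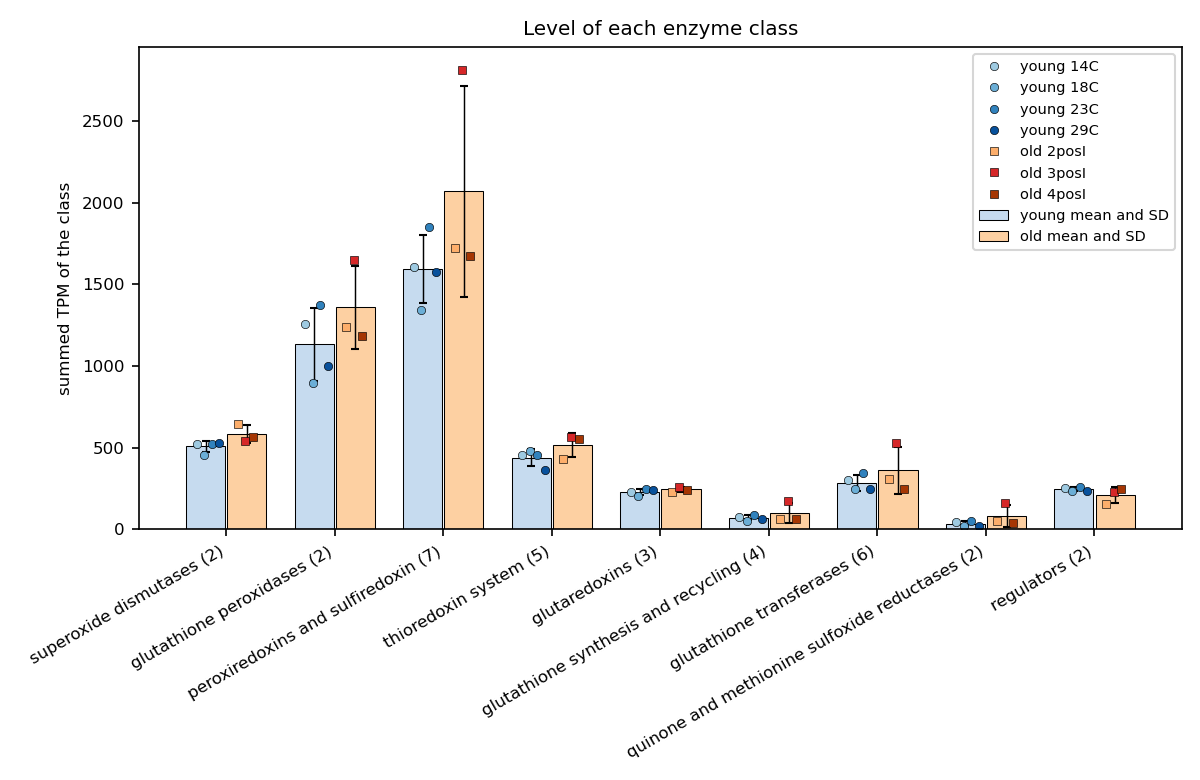
Bars show the mean summed TPM of each enzyme class in young (n = 4) and old (n = 3) mice, error bars the SD, and points the 7 libraries; the number of genes is in parentheses. Young and old points overlap in all classes but the superoxide dismutases. Mouse 3posI has the highest sum in all classes but the superoxide dismutases and the regulators.

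Superoxide dismutases and glutathione peroxidases hold the most direct peroxide and superoxide scavengers. Sod1, the copper and zinc enzyme of the cytosol (chr16:90220754-90226329, GRCm38), had 211, 176, 206 and 231 CPM in young mice 14C, 18C, 23C and 29C, and 301, 235 and 226 CPM in old mice 2posI, 3posI and 4posI. Its groups overlapped by 1 old mouse, 4posI, which lay under the highest young mouse. Old over young, the log2 fold change was 0.30 ± 0.15 (SE), at an adjusted p of 0.319. It was 0.16 without 2posI and 0.36 without 3posI. Sod2, the manganese enzyme of mitochondria, had 72.3 to 92.8 CPM in young and 67.9 to 116 CPM in old mice, and its log2 fold change of 0.16 became -0.09 without 3posI. Together they summed to 453 to 530 TPM at the young age and 539 to 643 TPM at the old age. This was the only class sum in TPM whose ages did not overlap. Neither gene separated the ages alone in TPM: Sod1 had 499.92 in 3posI and 504.91 in young mouse 29C. Sod2 had 25.65 to 39.14 TPM in old mice, highest in 3posI, and 25.33 to 34.71 TPM in young mice. In CPM the ages overlapped, as 4posI was below 29C in both genes, with 226 against 231 and 67.9 against 73.1.

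Gpx1, the cytosolic selenium peroxidase and the most abundant member (chr9:108338903-108340343), had 1045 ± 192 TPM in young and 1285 ± 228 TPM in old mice. In CPM, young mice had 674, 478, 720 and 583 and old mice 783, 979 and 649. Mouse 4posI lay inside the young range, and 2posI and 3posI were above it. A log2 fold change of 0.39 ± 0.20 for Gpx1 had an adjusted p of 0.329 and was 0.22 without 3posI. Gpx3, a secreted peroxidase, spread widely, with 50.1 to 139 CPM in young and 27.5 to 125 CPM in old mice, the lowest value in 4posI, and its log2 fold change turned from -0.12 to 0.31 without that mouse and was -0.43 without 3posI.

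Peroxiredoxins reduce peroxides through a reactive cysteine, and Srxn1 restores the overoxidized form. All 6 tested genes of this class had a log2 fold change above 0, with a median of 0.52, none passed the adjusted threshold, and all 6 had their highest value in 3posI. Without that library all 6 were still above 0, with a median of 0.17. Prdx5, which is found in mitochondria, peroxisomes and cytosol (chr19:6906697-6910106), had 247, 190, 228 and 256 CPM in young and 353, 498 and 250 CPM in old mice. Here 2posI and 3posI were above all young mice and 4posI was within them. Prdx5 had a log2 fold change of 0.67 ± 0.23 (adjusted p of 0.169), which was 0.39 without 3posI. Exons of Prdx5 overlap those of Trmt112 on the opposite strand over 19.1% of their bases, and its counts were fractional in all 7 libraries, so its value is uncertain. In TPM every old mouse was above every young one for Prdx5 and Prdx2.

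Prdx6, the peroxiredoxin that uses glutathione and also acts on phospholipid peroxides (chr1:161240112-161251219), had 89.1, 65.0, 103 and 69.8 CPM in young and 87.6, 357 and 76.3 CPM in old mice. Only 3posI left the young range, at 4.36 times the median of the other 6 libraries. Its log2 fold change of 1.09 ± 0.50 (adjusted p of 0.281) became 0.00 without that library. Prdx1, a cytosolic peroxiredoxin (chr4:116685544-116700822), had 516, 411, 653 and 528 CPM in young and 612, 937 and 534 CPM in old mice. Again only 3posI was above the young range, and the log2 fold change was 0.40 ± 0.23 with an adjusted p of 0.385, and 0.12 without 3posI. Prdx2, another cytosolic member (chr8:84969587-84974834), had 92.5, 82.5, 105 and 98.8 CPM in young and 118, 142 and 98.5 CPM in old mice. Prdx2 had a log2 fold change of 0.34 ± 0.15 (adjusted p of 0.271), which was 0.19 without 3posI, and 4posI was within the young range. Exons of Prdx2 overlap those of Junb and Rnaseh2a on the opposite strand, and Junb had 41603 to 185223 counts per library. The libraries are not stranded, so the Prdx2 value is uncertain.

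Prdx3, which works in mitochondria with Txn2, differed little in size but without overlap: it had 47.5 to 51.4 CPM in young and 52.2 to 58.2 CPM in old mice (log2 fold change of 0.18, adjusted p of 0.385). Srxn1 had 7.76 to 25.8 CPM in young and 18.7 to 39.7 CPM in old mice, and its log2 fold change of 0.65 was 0.19 without 3posI. Prdx4, the peroxiredoxin of the endoplasmic reticulum, had 90.0 to 118 CPM in young and 66.9 to 102 CPM in old mice, with the lowest value in 3posI, opposite to the rest of its class. With chromosome X kept in the fit, its log2 fold change was -0.30 ± 0.17 and the adjusted p 0.372.

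In the thioredoxin system, 2 of 5 genes were higher and 3 lower in old mice, and without 3posI 3 were higher and 2 lower. Txn2, the mitochondrial thioredoxin (chr15:77915047-77929006), had 60.4, 62.0, 76.2 and 64.7 CPM in young and 92.6, 104 and 74.9 CPM in old mice. The lowest old mouse, 4posI, was just under young mouse 23C and above the other 3. Txn2 had a log2 fold change of 0.46 ± 0.15 (adjusted p of 0.153), which was 0.35 without 3posI. Txn1, the cytosolic thioredoxin (chr4:57943373-57956411), had 112, 80.4, 122 and 101 CPM in young and 131, 250 and 110 CPM in old mice, with 4posI inside the young range. For Txn1 the log2 fold change was 0.66 ± 0.28 (adjusted p of 0.248), and 0.22 without 3posI.

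The reductases that recharge thioredoxin did not follow it. Txnrd1, the cytosolic reductase, had 66.9 to 121 CPM in young mice, 60.0 and 60.4 CPM in 2posI and 4posI, and 142 CPM in 3posI. The 3posI value was thus above and the other old values below every young mouse, with a log2 fold change of -0.04 over all mice and -0.58 without 3posI. Txnrd2, the mitochondrial reductase, had 30.5 to 36.1 CPM in young and 27.0 to 34.4 CPM in old mice (log2 fold change of -0.13, and -0.059 without 3posI). Txnip, the inhibitor that binds thioredoxin, varied as much within as between ages, with 242, 331, 166 and 152 CPM in young and 162, 79.5 and 303 CPM in old mice. It was lowest in 3posI, at 0.39 times the median of the other libraries, and its log2 fold change of -0.29 turned to 0.08 when effective length was an offset.

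Glutaredoxins use glutathione to reduce protein disulfides. Glrx, the cytosolic enzyme that removes glutathione from proteins (chr13:75839868-75850154), had 75.5, 61.5, 86.0 and 89.6 CPM in young and 97.4, 112 and 101 CPM in old mice. In CPM all 3 old mice were above all 4 young ones. In TPM the ages overlapped, as 2posI, with 91.97, was under young mouse 23C, with 93.76. Glrx had a log2 fold change of 0.41 ± 0.15 (adjusted p of 0.193), which ranged from 0.31 to 0.48 with any 1 library left out. Glrx3 and Glrx5, which handle iron-sulfur clusters, had log2 fold changes of 0.16 and -0.10, which were 0.077 and -0.18 without 3posI, and their ages overlapped.

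Glutathione is made by glutamate-cysteine ligase, whose catalytic subunit is Gclc and modifier subunit Gclm, and then by the synthetase Gss; Gsr, glutathione reductase, regenerates it from the oxidized form. All 4 genes had a log2 fold change above 0, with a median of 0.67, and without 3posI the median was -0.087, with Gclm, Gss and Gsr below 0. Gclc (chr9:77754535-77794485) had 13.5, 9.08, 14.7 and 13.9 CPM in young and 23.3, 17.4 and 24.96 CPM in old mice. Every old mouse was above every young one, and 3posI was the lowest of the old mice. The log2 fold change was 0.77 ± 0.20, with the smallest adjusted p of all members, 0.112; without 3posI the values were 0.92 and 0.0767. Across the fits that left out 1 library the log2 fold change of Gclc was 0.65 to 0.92.

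The subunit partner of Gclc had another pattern. Gclm had 29.2, 19.3, 31.5 and 23.3 CPM in young and 27.8, 74.8 and 18.9 CPM in old mice. Its high value was in 3posI alone, and 4posI was the lowest of all 7 mice. Gclm had a log2 fold change of 0.65 ± 0.42 (adjusted p of 0.434), and -0.15 without 3posI. Gsr had 44.6, 28.5, 52.7 and 37.9 CPM in young and 39.4, 124 and 34.2 CPM in old mice. Gsr had a log2 fold change of 0.69 ± 0.43 (adjusted p of 0.421), and it too was -0.15 without 3posI. Gss had 9.75 to 15.3 CPM in young and 12.3 to 17.0 CPM in old mice.

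**Figure D4:**
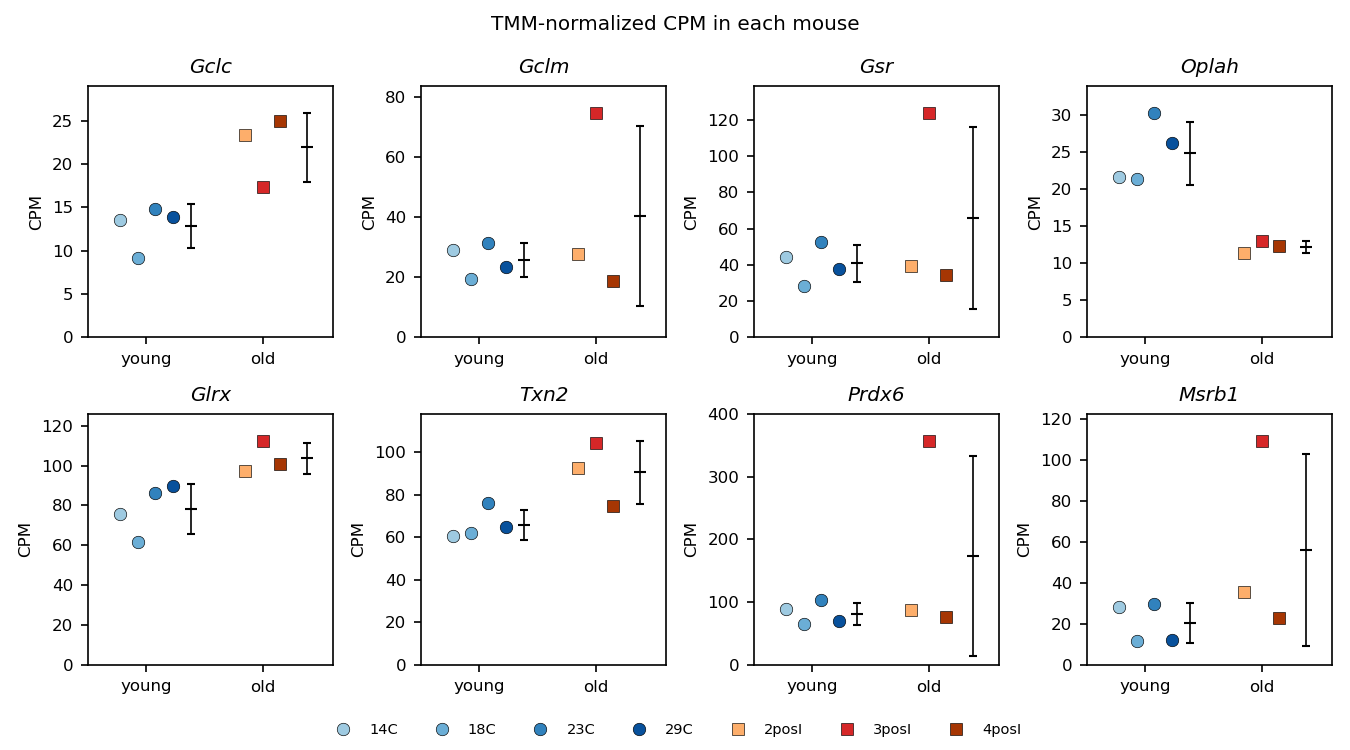
TMM-normalized CPM of 8 genes in each mouse, with the mean and SD of each age beside the points (young n = 4, old n = 3); every vertical axis is linear and starts at 0. Old and young points separate in Gclc, Glrx and Oplah, whereas 1 old mouse, 3posI, is above all other mice in Gclm, Gsr, Prdx6 and Msrb1.

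Among glutathione transferases, 5 of 6 genes were higher and 1 lower in old mice, and none passed the adjusted threshold. The class median was 0.23, and 0.070 without 3posI. Gsta4, which conjugates the lipid peroxidation product 4-hydroxynonenal (chr9:78182774-78209349), had 1.82, 1.81, 1.71 and 2.11 CPM in young and 1.16, 1.30 and 0.820 CPM in old mice. All old mice were below all young ones, at a level of 38 to 98 counts. Gsta4 had a log2 fold change of -0.77 ± 0.30 (adjusted p of 0.222), which was -0.91 without 3posI. Gstm1, a cytosolic mu-class transferase (chr3:108012255-108017973), had 24.0, 11.2, 28.4 and 12.4 CPM in young and 34.2, 61.4 and 18.9 CPM in old mice. The old mouse 4posI lay between the young mice, 2posI and 3posI above them. For Gstm1 the log2 fold change was 1.01 ± 0.44 (adjusted p of 0.262), and 0.48 without 3posI. Its counts were not whole in any library, since reads shared with closely related genes were divided among them, so the value is uncertain.

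Mgst1, a membrane-bound transferase with peroxidase activity, varied most. It had 20.6, 2.37, 21.0 and 4.04 CPM in young and 23.2, 86.1 and 6.78 CPM in old mice. Young mice themselves thus spread from 2.37 to 21.0 CPM, and the log2 fold change of 1.69 ± 0.93 had an adjusted p of 0.363 and was 0.32 without 3posI. Gsto1 had a log2 fold change of 0.34, Gstp1 0.11 and Mgst3 0.07, and their ages overlapped. Without 3posI these were 0.063, -0.074 and 0.077. Gstp1 and Mgst3 stood on either side of 0 depending on the scale: on the TPM scale with a pseudocount of 0.1 the log2 fold change of Gstp1 was -0.000112 and the log2 fold change of Mgst3 -0.00407.

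Msrb1, a selenoenzyme that repairs oxidized methionine (chr17:24736642-24742778), had 28.0, 11.5, 29.5 and 12.3 CPM in young and 35.3, 109 and 22.7 CPM in old mice. Young mice 14C and 23C were above 4posI, and 18C and 29C below it. The log2 fold change of Msrb1 was 1.45 ± 0.55 (adjusted p of 0.210), and 0.51 without 3posI. Nqo1, the quinone reductase often used as a readout of NRF2, was counted at 0.731 to 1.602 CPM in young and 0.950 to 2.04 CPM in old mice (log2 fold change of 0.35, and 0.10 without 3posI).

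Neither regulator was higher in old mice. Nfe2l2 (chr2:75675513-75704641) had 372, 337, 381 and 370 CPM in young and 265, 388 and 344 CPM in old mice. The lowest value was in 2posI, and the log2 fold change was -0.14 ± 0.15 with an adjusted p of 0.668. Keap1 had 46.0, 45.3, 57.0 and 55.9 CPM in young and 40.1, 47.8 and 47.1 CPM in old mice, a log2 fold change of -0.18 ± 0.13 with an adjusted p of 0.495. In TPM all old mice were below all young ones for Keap1, with 20.02 ± 3.55 against 25.4 ± 2.71. In CPM the ages of Keap1 overlapped. Its exons overlap those of Gm16754 on the opposite strand over 10.9% of their bases, and its counts were fractional in all 7 libraries. The Keap1 value is therefore uncertain.

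Because NRF2 acts through antioxidant response elements, the core TGACNNNGC was searched on both strands of promoter windows from RefSeq (GRCm38.p6), which run from 250 bases before to 50 bases after each start site. Of the members, 29 had a window and 7 of these (24.1%) held the core, against 3781 of 27025 genes (14.0%). Windows for Gsta4, Gclc, Prdx6 and Gsr were not used here. The matches are given as read on the minus strand of the chromosome, with 10 bases on each side in lower case and the core in capitals, so that the letters shared by genes with different age patterns can be compared.
Prdx1: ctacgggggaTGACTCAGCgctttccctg
Sod1: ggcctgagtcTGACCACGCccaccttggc
Srxn1: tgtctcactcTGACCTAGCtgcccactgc
Txnrd1: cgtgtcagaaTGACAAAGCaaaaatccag
Gclm: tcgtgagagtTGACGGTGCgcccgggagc
Mgst1: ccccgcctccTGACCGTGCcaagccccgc
Nfe2l2: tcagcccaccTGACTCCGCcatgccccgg
These lie at chr4:116685456-116685484 (Prdx1), chr16:90220696-90220724 (Sod1), chr2:152105542-152105570 (Srxn1), chr10:82859104-82859132 (Txnrd1), chr3:122245413-122245441 (Gclm), chr6:138140461-138140489 (Mgst1) and chr2:75704885-75704913 (Nfe2l2). The core begins 133 bases before the start site in Prdx1, 134 in Gclm, 92 in 1 of 3 Txnrd1 windows, 56 in Sod1 and Mgst1 and 240 in Nfe2l2, and in Srxn1 it lies after the start. In Nfe2l2 the letters read along the gene and in the other 6 genes against it. The 7 genes did not share 1 age pattern: Mgst1, Gclm, Srxn1, Prdx1 and Sod1 had log2 fold changes of 1.69, 0.65, 0.65, 0.40 and 0.30, and Txnrd1 and Nfe2l2 of -0.04 and -0.14. Without 3posI the same genes, in this order, were at 0.32, -0.15, 0.19, 0.12, 0.36, -0.58 and -0.26. A match to these letters is a description of the window and not a site of binding.

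Single libraries stood out within both ages. Of the 32 tested members, 23 (71.9%) had their highest CPM in 3posI, against 21.5% of all genes, and 19 (59.4%) their lowest in young mouse 18C, against 15.8% of all genes. Within the young mice, 22 members (68.8%) were highest in 23C, against 30.5% of all genes, and 26 (81.2%) lowest in 18C, against 28.2% of all genes. The microglia marker sum ran the other way in these libraries, with 15494 CPM in 18C, the highest of all, 7853 CPM in 23C, the lowest of the young, and 5236 CPM in 3posI. P2ry12, a marker of homeostatic microglia, had 1767 CPM in 18C, 441 CPM in 23C and 341 CPM in 3posI. Tmem119, Cx3cr1, Sall1, Csf1r and Itgam were likewise higher in 18C than in 23C and 3posI. Aif1 was not: it had 445 CPM in 18C, 403 CPM in 23C, 506 CPM in 3posI and its highest value, 878 CPM, in 2posI. Among the young mice, 23C also had the highest and 18C the lowest sum of the pericyte (33.6 and 4.70 CPM), endothelium (97.9 and 50.2 CPM) and erythroid markers (336 and 177 CPM). Monocyte markers summed to 24.5 CPM in 23C and 14.8 CPM in 18C, below the 74.7 CPM of 14C. The part of these markers in the results was not tested.

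**Figure D5:**
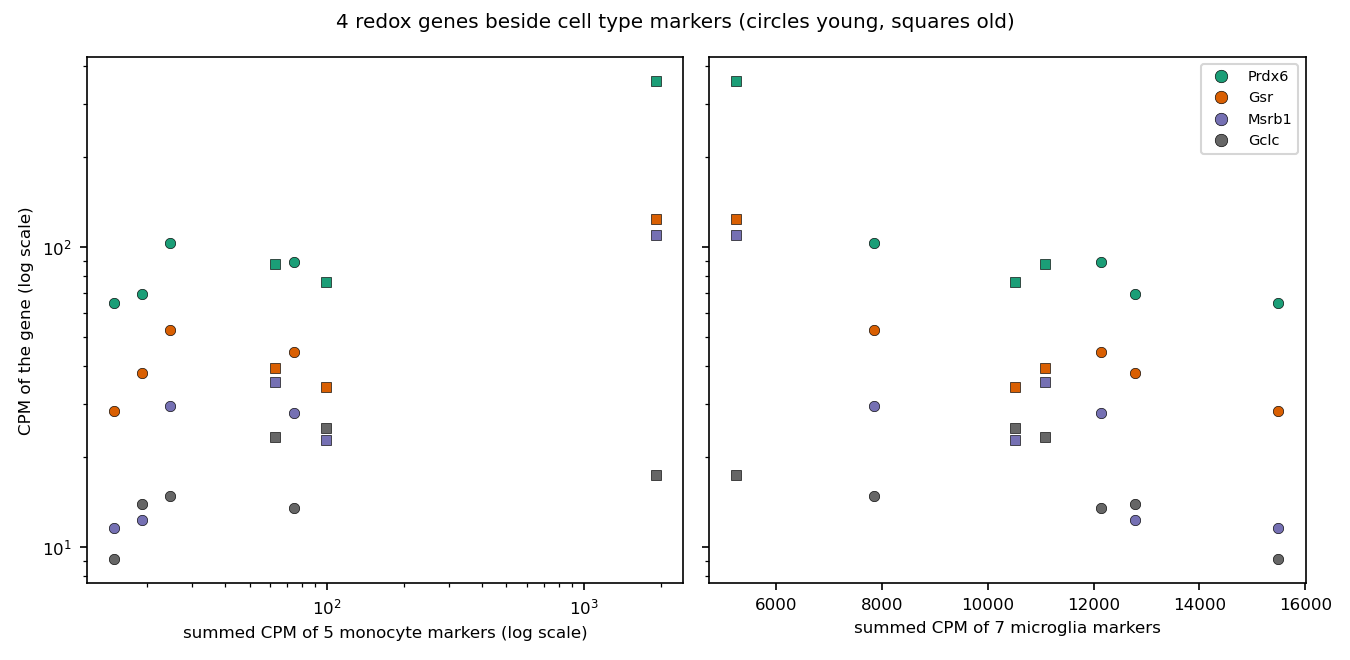
CPM of 4 genes on a log axis against the summed CPM of 5 monocyte markers (left, log axis) and of 7 microglia markers (right, linear axis), 1 point per gene and library, with circles for young and squares for old mice. Prdx6, Gsr and Msrb1 are highest in the library with 1916 CPM of monocyte and 5236 CPM of microglia markers, and Gclc, with 17.4 CPM there, is not.

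Against the median of the other 6 libraries, Mgst1 was 6.29 times, Msrb1 4.31 times, Gsr 3.21 times, Gclm 2.93 times, Gstm1 2.86 times and Txn1 2.25 times as high in 3posI. Markers of other cells also moved in that library: 5 border macrophage markers summed to 581 CPM, against 52.8 to 252 CPM elsewhere, and 4 dendritic cell markers to 54.4 CPM, against 4.08 to 7.01 CPM. Pf4, Cbr2 and Lyve1 were highest in 3posI, with 315, 149 and 15.4 CPM. Mrc1 and Cd163 were not, with 78.8 and 23.2 CPM there and 79.2 and 27.4 CPM in 2posI. Of the dendritic cell markers, Ccr7 and Flt3 were highest in 3posI, with 44.8 and 6.72 CPM. Xcr1, with 0.486 CPM, was lowest there, and Zbtb46, with 2.40 CPM, lay within the other libraries. The sum of 5 T cell markers was 1.01 to 3.08 CPM in old and 0.151 to 0.530 CPM in young mice, the only one of 13 marker lists whose ages did not overlap. This rested on Lck, with 6 to 47 counts per library, since ages overlapped in Cd3e, Cd3d, Cd3g and Trbc2. In 2posI those last genes had 0 CPM and Lck made up the whole sum. Erythroid markers reached 811 CPM in 2posI, against 177 to 336 CPM elsewhere, and red cells are rich in Prdx2 and Gpx1. In 2posI these genes had 118 and 783 CPM, the second highest values of the 7 libraries. Sod1 and Cat had their highest values in 2posI, at 301 and 89.5 CPM. Neutrophil, astrocyte, oligodendrocyte, neuron, endothelial, pericyte and B cell marker sums overlapped between ages. The part of these cells in the results was not tested.

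A wider set of 104 redox genes gave the context, of which 95 were tested, 64 were higher and 31 lower in old mice, with a median log2 fold change of 0.12. Of these, 22 (23.2%) had an unadjusted p under 0.05, 17 higher and 5 lower, against 18.9% of all genes. Without 3posI, 61 were higher and 34 lower, and 17 (17.89%) had an unadjusted p under 0.05, against 17.65% of all genes. Oplah alone passed the adjusted threshold. Oplah, the 5-oxoprolinase that returns glutamate from the glutathione cycle (chr15:76296601-76328015), had 21.6, 21.3, 30.3 and 26.2 CPM in young and 11.3, 12.9 and 12.4 CPM in old mice. All old mice were below all young ones, and the log2 fold change of Oplah was -1.03 ± 0.16 (SE), at an adjusted p of 0.0385. It passed in 1 of 7 fits with a library left out, the one without 3posI (adjusted p of 0.0466), with a log2 fold change of -1.09 to -0.92 throughout. Exons of Oplah overlap those of Exosc4 and Smpd5 on the opposite strand, so its value is uncertain. Of its list, the supply, use and degradation of glutathione, 10 of 13 genes were higher and 3 lower, and 6 and 7 without 3posI. Slc7a11, the cystine importer that limits glutathione synthesis, had 4.06, 2.70, 4.58 and 2.89 CPM in young and 5.10, 15.2 and 5.61 CPM in old mice. Its ages did not overlap in CPM, and the log2 fold change of 1.28 ± 0.41 (adjusted p of 0.155) was 0.59 without 3posI. In TPM the ages overlapped, as 2posI, with 1.04, was under every young mouse, while 3posI, with 3.85, was above all of them. The log2 fold change of Slc7a11 was 0.67 when effective length was an offset. It was 0.27 on the TPM scale with a pseudocount of 1. Slc7a11 counts were fractional in all 7 libraries, so the value is uncertain.

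Other antioxidant enzymes were 14 higher and 9 lower of 23, with none past the adjusted threshold. The 2 with the smallest p were Selenow, a small selenoprotein (59.1 to 129 CPM in young, 100 to 252 CPM in old, log2 fold change of 0.99, adjusted p of 0.185), and Sesn3, a sestrin (1.80 to 2.37 CPM in young, 2.48 to 4.202 CPM in old, 0.74, adjusted p of 0.195). Catalase, Cat, which removes hydrogen peroxide in peroxisomes, had 77.4 ± 4.81 CPM in young and 81.0 ± 8.25 CPM in old mice. Gpx4, the peroxidase of membrane lipids, had a log2 fold change of 0.26 with an adjusted p of 0.396. Of 20 other glutathione transferases, 14 were tested, 7 higher and 7 lower. Gstt3 was close to constant within each age, with 4.48 to 4.65 CPM in young and 6.35 to 6.49 CPM in old mice (log2 fold change of 0.48, adjusted p of 0.177). Gstm4 overlapped between ages, with 6.85 to 9.53 and 8.53 to 13.1 CPM, and its log2 fold change of 0.39 was 0.25 without 3posI.

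NADPH, the electron donor of both systems, is supplied by a list of 13 genes, of which 12 were tested, 9 higher and 3 lower, and 6 and 6 without 3posI. Nnt, the mitochondrial transhydrogenase, had 44.7 to 49.0 CPM in young and 32.3 to 39.6 CPM in old mice, without overlap, with a log2 fold change of -0.42 ± 0.11 (adjusted p of 0.121). Mthfd2, a mitochondrial folate enzyme, had 49.3 CPM in 4posI and 21.5 to 27.3 CPM in the other libraries, and its log2 fold change was 0.51 with that mouse and 0.15 without it. G6pdx, which encodes the first enzyme of the pentose phosphate pathway and lies on chromosome X, had a log2 fold change of 0.20 (adjusted p of 0.619) when X was kept.

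Of the 9 NADPH oxidase genes, 7 were tested, 5 higher and 2 lower, and 4 (57.1%) had an unadjusted p under 0.05, 3 higher and 1 lower, against 18.9% of all genes. Without 3posI, 2 did (28.57%), both higher, against 17.65% of all genes. Cyba, the membrane subunit p22phox, had 736 to 982 CPM in young and 989 to 1436 CPM in old mice, without overlap, at a log2 fold change of 0.54 ± 0.18 (adjusted p of 0.163). Ncf4, the cytosolic subunit p40phox, had 66.6 to 86.6 CPM in young and 85.8 to 160 CPM in old mice (0.63, adjusted p of 0.165, and 0.33 without 3posI). All old mice were below every young mouse in Hvcn1, the proton channel that sustains the burst. It had 275 to 338 CPM in young and 176 to 264 CPM in old mice (-0.41, adjusted p of 0.237). The same held for Ncf1, the cytosolic subunit p47phox, with 349 to 410 and 332 to 347 CPM (-0.19, adjusted p of 0.421). Exons of Hvcn1 overlap those of Tctn1 on the opposite strand over 44.2% of their bases. Those of Ncf1 overlap Gtf2ird2 over 11.1%, so both values are uncertain. Cybb, the catalytic subunit, is on chromosome X; it had 91.5 to 179 CPM in young and 212 to 370 CPM in old mice, and the fit that kept X gave a log2 fold change of 0.97 ± 0.27 (adjusted p of 0.128).

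NRF2 partners and other targets numbered 20, with 15 higher and 5 lower in old mice, 6 (30.0%) at an unadjusted p under 0.05, against 18.9% of all genes, and none past the adjusted threshold. Hmox2, the constitutive heme oxygenase, had 111 to 134 CPM in young and 147 to 191 CPM in old mice, and Blvra, biliverdin reductase, which acts after it, had 48.3 to 66.5 and 71.6 to 110 CPM. Neither overlapped between ages, with log2 fold changes of 0.49 and 0.61 and adjusted p of 0.114 and 0.126. Exons of Hmox2 overlap those of Cdip1 on the opposite strand over 40.2% of their bases. Its counts were fractional in all 7 libraries, so the Hmox2 value is uncertain. Hmox1, the inducible form and a target of NRF2, had 107 to 284 CPM in young mice and 144, 506 and 125 CPM in old ones, with the high value in 3posI. Of the 6 selenoprotein synthesis genes, which build the active site of the Gpx1, Txnrd1 and Msrb1 proteins, 4 were higher and 2 lower. Sepsecs had 10.8 to 13.0 CPM in young and 8.25 to 8.89 CPM in old mice (log2 fold change of -0.45, adjusted p of 0.164) and Trnau1ap overlapped (0.19, adjusted p of 0.559, and 0.021 without 3posI).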

How the data were processed

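RNA of sorted microglia from 7 mice was made into Smart-seq2 libraries, which per the labels were low-input and non-stranded. No molecular identifiers are named, so PCR copies count as reads. Reads were trimmed (skewer) and mapped to GRCm38 (STAR) by the authors, who quantified GENCODE m15 genes with RSEM. The version of neither STAR nor RSEM is given in the sources used here. Deposited expected counts were not normalized. The deposited TPM values were scaled within each library by the authors. The FPKM values, which the authors also made with RSEM, were not tested. Sex, day and sort came from the study's legends and methods.

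Expected counts were rounded. Following the study's methods, 18173 genes had more than 10 counts in 1 or more libraries, and 614 of them, on chromosomes X, Y and M, were removed. This left 17559, of which 42 had no chromosome. Annotation was GENCODE vM21, without 224 of the 50686 identifiers. edgeR 4.0.16 (R 4.3.3) gave TMM factors, CPM and the quasi-likelihood test, with age as the only term; the SE is the fold change over the root of F. The biological coefficient of variation was 37.2%. Calls have an adjusted p under 0.05. Alternatives were limma-voom (limma 3.58.1), the test of the study's methods, DESeq2 1.42.0, other scaling and filters, length corrections, TPM with pseudocounts of 1 and 0.1, and each library left out.

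The members, lists and naming rule were chosen with earlier results of these data known. Full statistics are given for the 12 members with the smallest p and the 3 most abundant, plus Gclm, Gsr, Mgst1, the regulators, Hvcn1 and Ncf1, which were added after their values were seen, and of the wider lists for genes past the threshold and the 2 with the smallest p in each. RSEM divides reads that match several genes: 11 members had fractional counts in all 7 libraries and 19 whole counts in all (tolerance 0.001). The 11 were Sod1, Prdx1, Prdx2, Prdx5, Txn1, Txnrd2, Glrx3, Gclm, Gstm1, Gstp1 and Keap1, and their values share this uncertainty. Exons of 7 members overlap another gene. Intervals and p-values do not cover counting shared between copies. Of the microglia markers, 1 of the planned list is not reported here and entered no sum. Scripts were tested on simulated data.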

Additional observations from a re-analysis of the deposited data

Results flagged for a closer look

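The summed TPM of the superoxide dismutases in young mouse 18C, 453 TPM, stood apart from 522 to 530 TPM in the other 3 young mice. The gap was 0.897 of the range of the 4 young mice, above the 95% critical value of Dixon's test. Of 43 groups of 4 young libraries examined, 1 gene or class sum each, this was the only 1 past that value, against 2.15 that chance gives at 1 in 20. Mouse 18C also had the lowest CPM of the 4 young mice in 26 of the 32 tested members.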

How the results depend on the processing

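With 3 old and 4 young mice, no member passed the adjusted threshold under 11 of 12 alternatives or with any 1 library left out; DESeq2 called 1, Gclc (0.78, adjusted p of 0.0163). Between 5 members (limma-voom, with or without quality weights) and 9 had an unadjusted p under 0.05, and 4 to 15 with 1 library left out, the fewest without 14C, 18C, 29C or 3posI and the most without 4posI. Over all genes 318 (quality weights), 1399 (DESeq2), 213 (effective length), 64 and 71 (TPM, pseudocounts 1 and 0.1), 288 (no filter) and 228 (at least 1 CPM in 3 libraries) were called, and 1 to 159 with a library left out. On the TPM scale with a pseudocount of 0.1 the median of all genes was -0.13, against -0.01, and that of the members 0.22. Of the log2 fold changes that crossed 0 when 1 library was left out, Sod2 ranged from -0.094 to 0.31, Gclm from -0.15 to 0.99, Gss from -0.027 to 0.24, Gsr from -0.15 to 0.99, Gstp1 from -0.074 to 0.25, Txnip from -0.89 to 0.064, Gpx3 from -0.43 to 0.31, Txnrd1 from -0.58 to 0.17, Glrx5 from -0.20 to 0.058 and Nfe2l2 from -0.26 to 0.0032. In the first 6 the only library that turned the sign was 3posI. Txnrd1 turned to 0.096 and Mgst3 to -0.016 with length trends removed, Txnip to 0.077 with the effective-length offset, Gstp1 to -0.000112 on the TPM scale with a pseudocount of 0.1, and the log2 fold change of Mgst3 to -0.00442 and -0.00407 with pseudocounts of 1 and 0.1. The log2 fold change of Oplah stayed past the threshold under 11 of 12 alternatives, but not on the TPM scale with a pseudocount of 1 (adjusted p of 0.0609). Where a value moved, the cause was not tested. No paired analysis was possible because the ages are different mice, and their replicate numbers, given in accession order, tie none of them together.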
